A study of Mus musculus with 4 samples.

Results

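Mitosis and spindle genes encode the proteins that condense chromosomes, attach them to the spindle, hold division until all are attached, and split the cell. The set described here was a list of 41 such genes: late cell cycle cyclins, mitotic kinases, and kinetochore, spindle and cytokinesis genes. A member was read on every probe set whose only platform gene symbol was its own. That rule found 89 probe sets for 40 of the 41 genes, of 34945 probe sets with 1 symbol and 45101 in all. The cyclin Ccnb1 had none and was not analysed here.

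Expression arrays were run on RNA of gamma delta intraepithelial lymphocytes, which are T cells lodged between epithelial cells of the gut. They were sorted colonic cells of conventionally raised C57b/6 mice, either untreated (2 arrays) or treated with DSS (2 arrays). DSS, dextran sulfate sodium, is a polymer that injures the colonic epithelium when drunk. It was given at 2% for 5 days and followed by 3 days on normal water, and the untreated mice received no agent. No label says that the arrays of a group came from separate animals or sorts. A p-value here measures the spread between these samples alone, which may be technical.

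Dividing cells make these transcripts in a wave that begins after DNA replication and ends as the cell leaves mitosis. Most of them are scarce in resting cells, so their summed level in a tissue is commonly read as a sign of how many cells are dividing. Intraepithelial lymphocytes are long-lived resident T cells in which only a fraction divides at a given time, whereas crypt epithelial cells divide often. RNA of a sorted population is a mixture, so a larger fraction of dividing cells and more RNA per dividing cell cannot be told apart.

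Mitotic promoters often carry a CCAAT box, bound by the factor NF-Y, and a cell cycle genes homology region (CHR), through which repressor and activator complexes act. RefSeq promoter windows on build GRCm38.p6, from 250 bases before to 50 after the start of transcription, matched 35 of the 41 genes, with 37 windows. The letters TTTGAA or TTTAAA (CHR) and CCAAT were searched on both strands. CHR letters stood in 30 of the 37 windows (81.1%), against 27.6% of all 32851 windows of this length. CCAAT letters stood in 29 (78.4%), against 37.4% of all windows, and both motifs in 26 (70.3%), against 10.7%. A letter match is a description and not a binding site.

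The windows below belong to the 4 tested members with both motifs and the highest positive limma t statistics, and capitals mark the CHR and CCAAT letters on either strand. They show how the motifs are arranged next to the start site. Top2a lies on the minus strand at chr11:99024140-99024439, Ncapg on the plus strand at chr5:45669675-45669974, Spc25 on the minus strand at chr2:69206164-69206463 and Ccnb2 on the minus strand at chr9:70421505-70421804.
Top2a: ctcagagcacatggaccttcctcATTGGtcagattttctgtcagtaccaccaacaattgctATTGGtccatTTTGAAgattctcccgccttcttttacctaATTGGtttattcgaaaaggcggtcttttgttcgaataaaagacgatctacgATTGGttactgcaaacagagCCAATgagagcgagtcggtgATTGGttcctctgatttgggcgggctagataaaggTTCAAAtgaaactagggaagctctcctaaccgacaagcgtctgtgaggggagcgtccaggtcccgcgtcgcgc
Ncapg: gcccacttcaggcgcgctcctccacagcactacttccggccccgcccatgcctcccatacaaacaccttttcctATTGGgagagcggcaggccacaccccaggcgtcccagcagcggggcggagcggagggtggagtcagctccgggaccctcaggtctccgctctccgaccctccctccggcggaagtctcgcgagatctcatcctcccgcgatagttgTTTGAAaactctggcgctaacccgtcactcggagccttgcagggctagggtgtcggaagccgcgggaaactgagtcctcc
Spc25: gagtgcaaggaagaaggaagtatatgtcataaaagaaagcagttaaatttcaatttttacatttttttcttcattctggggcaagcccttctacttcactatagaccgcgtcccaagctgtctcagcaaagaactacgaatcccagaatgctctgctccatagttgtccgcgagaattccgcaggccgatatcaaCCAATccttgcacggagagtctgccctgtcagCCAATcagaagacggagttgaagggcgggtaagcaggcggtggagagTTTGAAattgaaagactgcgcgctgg
Ccnb2: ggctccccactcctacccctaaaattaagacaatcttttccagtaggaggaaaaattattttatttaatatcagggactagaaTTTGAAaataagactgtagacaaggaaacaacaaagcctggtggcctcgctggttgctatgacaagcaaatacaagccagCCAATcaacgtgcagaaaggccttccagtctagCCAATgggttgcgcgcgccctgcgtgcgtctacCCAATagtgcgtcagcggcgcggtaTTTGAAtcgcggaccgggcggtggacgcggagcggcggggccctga
In Ccnb2 the 3 CCAAT boxes began 87, 54 and 21 bases before the start, 33 bases apart, and a CHR began at base 5 after it. Spc25 had 2 CCAAT boxes 32 bases apart, with a CHR beginning at base 25 after the start. Top2a had 6 CCAAT matches and a CHR that began 23 bases before the start, and Ncapg had 1 CCAAT match and a CHR that began 30 bases before it. The motifs were not confined to members with higher estimates: Aurka and Cenpa, the 2 members lower on both DSS arrays, also held 2 matches of each. Among tested members, the 23 with both motifs had a median log2 difference of 0.79, and the 11 with a window lacking 1 or both had a median of 0.67. The difference between these medians was not tested.

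Signals were compared as log2(signal + 32), a scale that understates changes of dim genes. A probe set was kept if at least 2 of the 4 arrays read it above the array median, and the kept probe set with the highest mean log2 signal stood for its gene. This left 39 of the 41 members among 12424 genes, since Kif20a, a kinesin of cytokinesis, had only 1 probe set, below that filter. Its signals were 221 and 89.8 on the untreated arrays against 111 and 134 after DSS, and the groups overlapped. A further 4 members, Melk, Birc5, Anln and Ncapg, passed the filter through their DSS values alone, a route that favours higher estimates. All 4 lay higher on both DSS arrays. Of all genes tested, 365 (2.94%) passed in this way, 363 of them with higher estimates, and 386 (3.11%) passed through their untreated values alone. Among the 63 kept probe sets of members, 9 passed through the DSS arrays alone, all of them with higher estimates, and 1 through the untreated arrays alone.

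Most mitosis and spindle genes had higher estimates in the DSS samples, but no single gene passed the test. Of the 39 tested, 30 had a higher and 9 a lower estimate, and the median log2 difference was 0.56, against -0.07 over all genes tested, of which 46.1% had a higher estimate. The groups did not overlap for 21 members. Among them 19 lay higher on both DSS arrays, where the share of all genes was 17.2%, and 2 lay lower, where it was 23.8%. Cks2, Melk, Top2a and Ncapg lay at least 2-fold higher on both DSS arrays, a count of 4 where 2.41% of all genes did so. Of these 4, Melk and Ncapg passed the filter through their DSS values alone. With no filter on low values the count was also 4, where 2.71% of all genes did so. In the main setting 0 members lay lower by that much, where 3.01% of all genes did. Without untreated replicate 1, untreated replicate 2 or DSS replicate 1 in turn, the count at least 2-fold higher was 8, 13 and 8, while the share of all genes was 12.0%, 10.4% and 3.80%. With no filter on low values, 19 of 40 members were higher and 2 lower on both DSS arrays, against 14.8% and 25.1% of 18193 genes, and the median was 0.55 against -0.14.

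By limma with Benjamini-Hochberg adjustment, 0% of all genes and 0 members were called, and the smallest adjusted p of a member was 0.649. At an unadjusted limma p under 0.05 there were 7 members higher and 0 lower, where 3.71% of all genes were higher and 3.81% lower. The 7 were Top2a, Cks2, Ncapg, Spc25, Ccnb2, Smc2 and Melk, of which Ncapg and Melk passed the filter through their DSS values alone. The calls changed when either untreated array was left out, and the cause was not tested. Without untreated replicate 1, limma called 1791 genes (14.4%), among them 8 members: Cks2, Spc25, Ncapg, Smc2, Smc4 and Top2a as higher and Cdc20 and Tpx2 as lower. Without untreated replicate 2 it called 755 genes (6.08%), among them 5 members, Cks2, Mki67, Ccnb2, Racgap1 and Top2a, all as higher. Cks2 and Top2a were the members called in both. The lone untreated sample is then assumed to vary like the DSS samples, which differed least from each other.

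**Figure D1:**
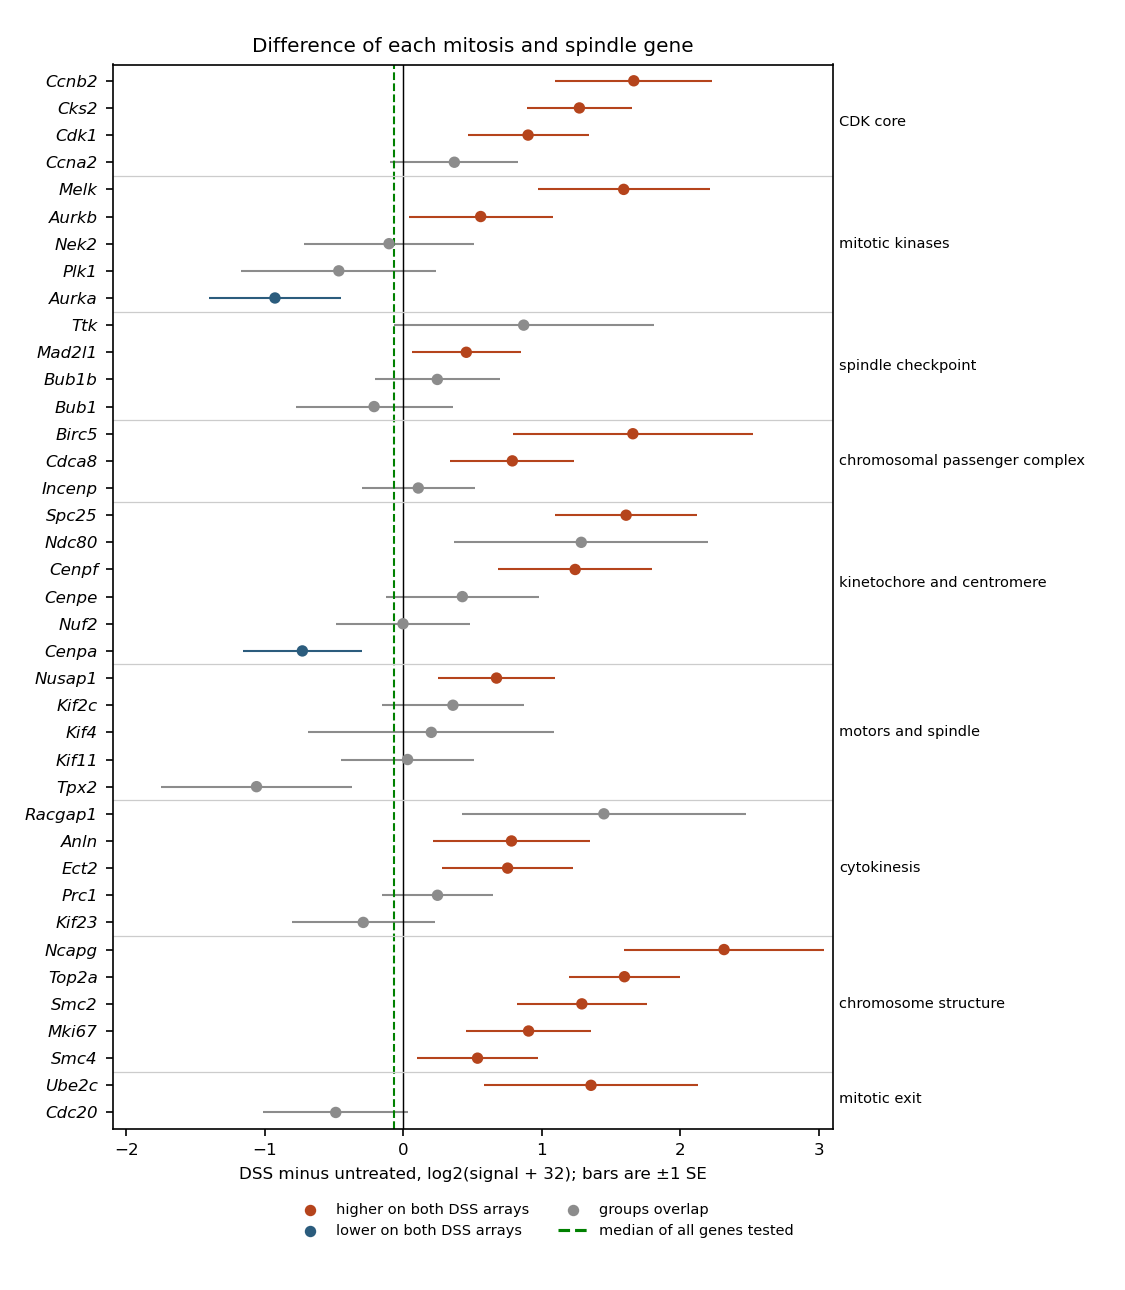
Difference between DSS and untreated samples for each of the 39 tested genes (x axis, log2(signal + 32); points are estimates, bars ±1 SE, n = 2 per group), grouped by role. Genes higher on both DSS arrays (19) are red, those lower on both (2) blue and those whose groups overlap grey, and the dashed line marks the median of all genes, -0.07.

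On the untreated arrays the replicates of these genes spread more than those of all genes, with median log2 SDs of 0.64 and 0.48. On the DSS arrays they spread slightly less, with 0.23 against 0.26. Of the 39 members, 27 were higher on untreated replicate 2 than on untreated replicate 1, where 53.1% of all genes were. The median difference of the members was 0.54, while all genes had a median of 0.07. DSS replicate 2 exceeded DSS replicate 1 for 29 members, where it did so for 50.8% of all genes. The median difference over the 39 members was 0.22, against 0.01 over all genes. Against untreated replicate 1, DSS replicates 1 and 2 were higher by medians of 0.64 and 0.88. Against untreated replicate 2 the medians were 0.35 and 0.53, no larger than the difference between the untreated replicates. All 4 comparisons across groups had the same sign, with 25 to 33 of 39 members higher, where 43.5% to 47.6% of all genes were. The difference exceeded the replicate gap of both groups for 14 members that were higher (35.9%, against 11.4% of all genes) and 2 that were lower (5.13%, against 16.4%).

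**Figure D2:**
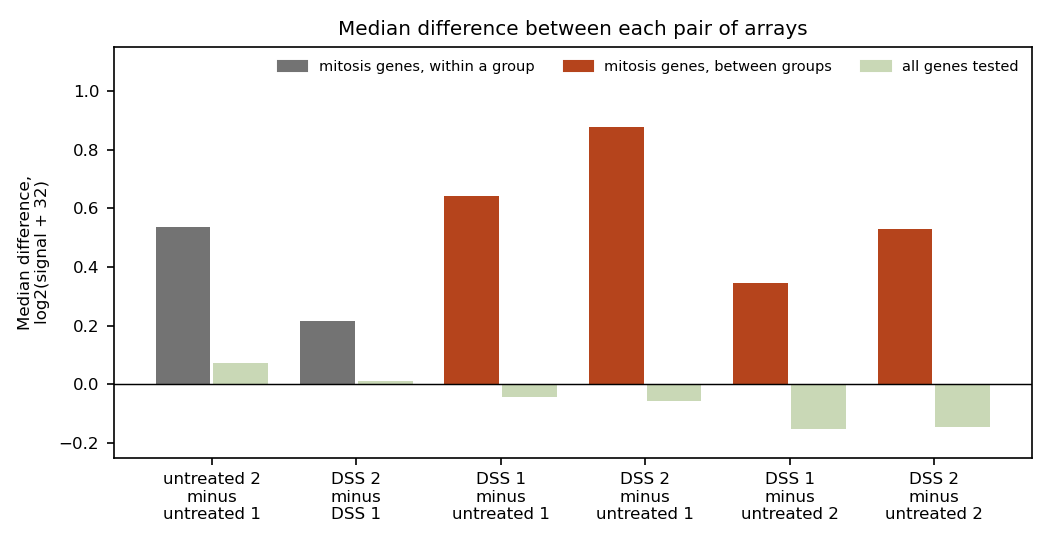
Median difference in log2(signal + 32) for each pair of arrays, over the 39 mitosis and spindle genes (grey within a group, red between groups) and over all 12424 genes (green). The untreated arrays differed by 0.54 for these genes, and the DSS arrays exceeded the untreated arrays by 0.35 to 0.88.

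The arrays also differed as wholes in ways that followed the groups. Hybridisation controls, transcripts added before hybridisation, read 29832 to 44427 on the untreated arrays and 6192 to 6308 on the DSS arrays, and array medians were 194 to 214 and 157 to 163. DSS and array processing therefore cannot be told apart.

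**Figure D3:**
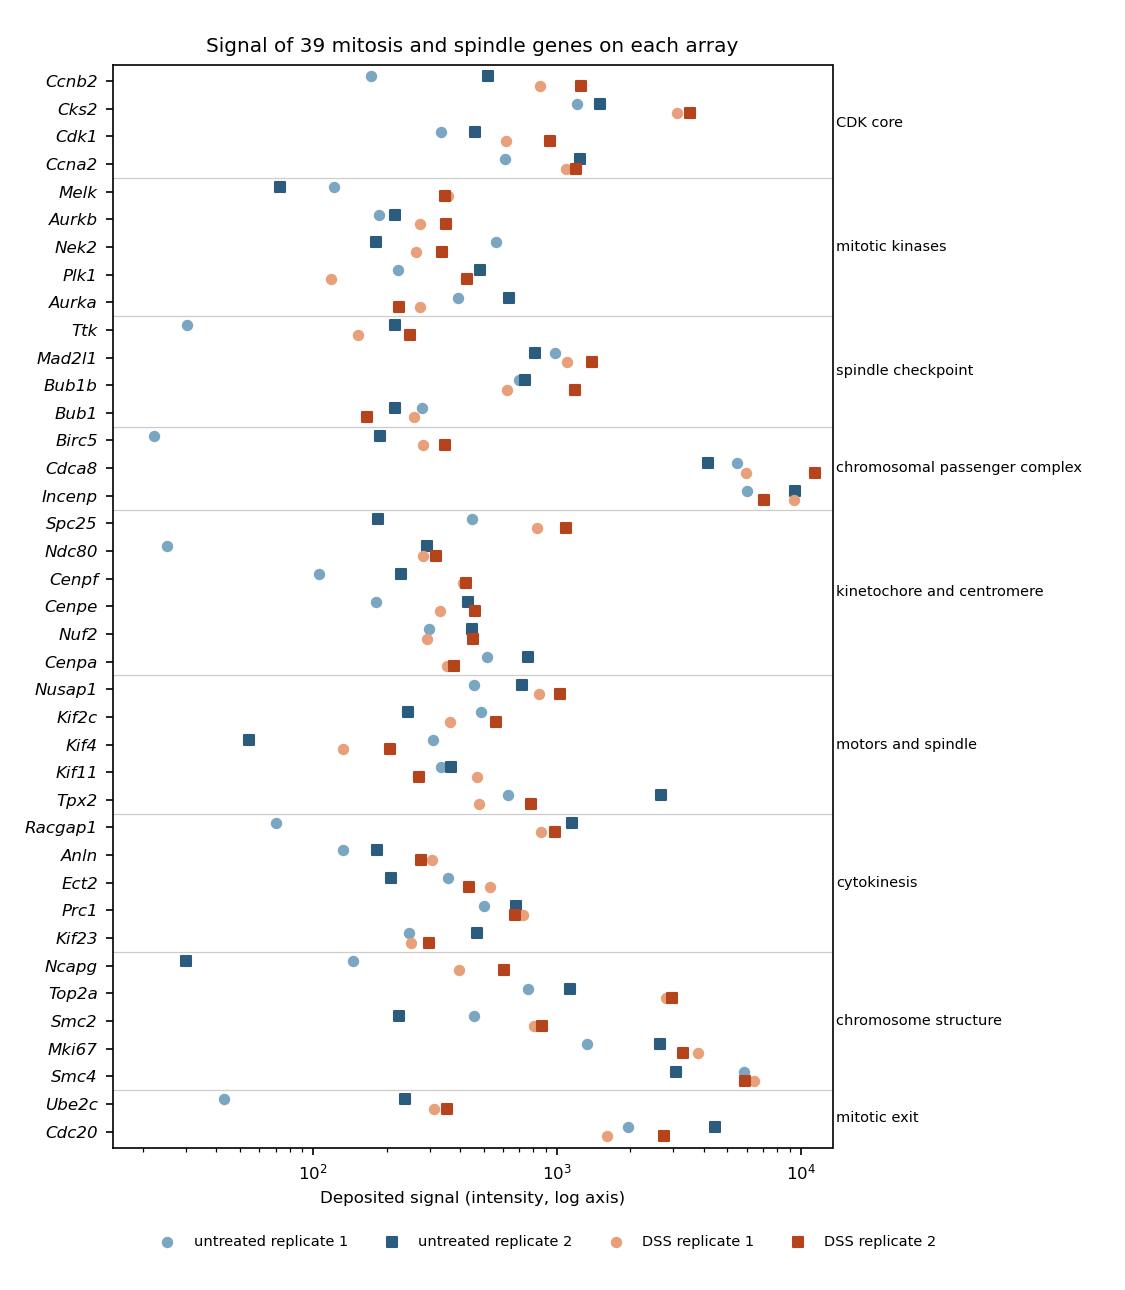
Deposited signal (x axis, log scale) of each of the 39 genes on the 4 arrays, grouped by role, with untreated arrays in blue and DSS arrays in orange to red. The 2 DSS values of Top2a, Cks2, Ncapg and Melk stand at least 2-fold to the right of both untreated values, while those of Aurka and Cenpa stand to the left.

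Of the kinase that drives entry into mitosis and its partners, 4 genes were tested. All 4 had higher estimates in DSS samples, where 46.1% of all genes did. On both DSS arrays 3 of them lay higher, where 17.2% of all genes did. Ccnb2, a B-type cyclin that activates Cdk1, had signals of 172 and 522 on the untreated arrays against 853 and 1254 after DSS, and the log2 difference was 1.66 ± 0.57 (SE, 2 arrays a group). Cks2, the small subunit that docks the kinase to its substrates, had 1213 and 1498 against 3114.5 and 3498, a difference of 1.27 ± 0.38. Its other kept probe set read 453 and 1121 against 1130.1 and 1034, a difference of 0.57 with overlapping groups. The kinase Cdk1 itself had 334 and 461 against 619.7 and 934, a difference of 0.90 ± 0.44. On these brightest probe sets no groups overlapped, and the gap was narrowest for Cdk1, whose lower DSS signal was 1.34 times its higher untreated signal. Ccna2, the cyclin that acts earlier, from S phase into mitosis, had 612 and 1244 against 1086 and 1193 (0.37 ± 0.46), with untreated replicate 2 above both DSS arrays. Its other kept probe set read 526 and 824 against 976 and 1078, higher on both DSS arrays by 0.61.

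With signals as deposited, chromosome structure genes were the one role in which every tested member was higher on both DSS arrays. These were 5 of 5, where 17.2% of all genes were higher on both, and their median log2 difference was 1.29. Top2a, the topoisomerase that untangles sister DNA, had 759 and 1134 on the untreated arrays against 2800.15 and 2951 after DSS, a difference of 1.60 ± 0.40. Its other kept probe set was dimmer and overlapped between groups, with a difference of 0.27. Ncapg, a subunit of condensin, had 146 and 30.0 against 396 and 607, a difference of 2.32 ± 0.72. Both untreated values of Ncapg lay below the medians of their arrays, so it passed the filter through its DSS values alone. The size of its difference rests on dim signals. The other probe set of Ncapg, dimmer still and not kept by the filter, was lower on both DSS arrays, with a difference of -0.38. Smc2, one of the 2 core ATPases of condensin, had 459 and 226 against 807 and 869 (1.29 ± 0.47), but its other kept probe set read 272 and 94.95 against 117 and 168, a difference of -0.19. Smc4, the other core ATPase, had 5824 and 3086 against 6441 and 5900.35 (0.54 ± 0.43), and its DSS values barely cleared untreated replicate 1. Mki67, the Ki-67 protein that coats mitotic chromosomes and is widely used as a proliferation marker, had 1323 and 2634 against 3799.6 and 3275 (0.91 ± 0.45). In Smc2 and Smc4 it was untreated replicate 2 that was low, while in Top2a and Mki67 it was replicate 1.

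Kinases of the spindle and centrosome did not share a direction. Melk, a kinase abundant in proliferating cells, had 122 and 73.2 on the untreated arrays against 356 and 347 after DSS, a difference of 1.59 ± 0.62. It passed the filter through its DSS values alone. Aurkb, the catalytic subunit of the chromosomal passenger complex, had 185 and 216 against 274 and 350 (0.56 ± 0.52), on a probe set whose name ending marks possible binding to related transcripts. Aurka, the kinase of centrosomes and spindle poles, had 392 and 637 against 273 and 225 (-0.93 ± 0.47). On these probe sets Aurora A was thus lower and Aurora B higher on both DSS arrays, and neither difference passed. The other probe set of each gene, which was not kept by the filter, had the opposite sign, at 0.75 for Aurka and -1.19 for Aurkb. Plk1, the polo kinase that acts at several steps of mitosis, had 223 and 484 against 118 and 428, and its groups overlapped. Nek2, which separates centrosomes, had 560.0 and 180.1 against 263 and 337. Its small difference (-0.10 ± 0.61) turned positive under quantile normalization and under common median scaling. Its other kept probe set read 371 and 374 against 78.9 and 138, a difference of -1.56 with no overlap between the groups, and passed the filter through its untreated values alone.

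The spindle checkpoint holds anaphase until every chromosome is attached, and 1 of its 4 members was higher on both DSS arrays, a share near the 17.2% of all genes. Mad2l1 (MAD2), which with BubR1 inhibits the anaphase-promoting complex, had 983 and 811 on the untreated arrays against 1097 and 1392 after DSS (0.46 ± 0.39). Bub1b, encoding BubR1, had 697 and 742 against 622 and 1182 (0.25 ± 0.45). Another kept probe set of Bub1b read 73.2 and 37.7 against 307 and 424, a difference of 2.20, but passed the filter through its DSS values alone. The kinase Bub1 had 278 and 217 against 259 and 166 on its brightest probe set (-0.21 ± 0.57), a sign that turned under both other scalings, and its other kept probe set, which passed through its DSS values alone, gave 1.64. Ttk (MPS1), the kinase that starts the checkpoint, ranged from 30.4 to 217 on the untreated arrays against from 153 to 248 after DSS.

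The chromosomal passenger complex carries Aurora B to centromeres and then to the midzone. Birc5 (survivin) had 22.2 and 188 on the untreated arrays against 282 and 346 after DSS, a difference of 1.66 ± 0.86. Its untreated replicates were far apart, and both lay below their array medians. Cdca8 (borealin) had 5467 and 4167 against 5952 and 11470 (0.79 ± 0.45), and its 3 kept probe sets gave 0.79, 1.22 and -1.12. Incenp, the scaffold of the complex, had 6023 and 9468 against 9406 and 7052 (0.11 ± 0.41), while its other kept probe sets, both of which passed through their DSS values alone, gave 0.65 and 0.93. The brightest probe sets of Cdca8 and Incenp both carry endings that mark possible binding to related transcripts, so these levels are uncertain.

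Kinetochore genes included both large positive estimates and the second of the members that were lower. Spc25, a subunit of the Ndc80 complex that grips microtubules, had 448 and 184 on the untreated arrays against 826 and 1092 after DSS, a difference of 1.61 ± 0.51. Cenpf, a large kinetochore protein of late cell cycle cells, had 106 and 230.01 against 411 and 423 (1.24 ± 0.56). These 2 did not overlap between groups, but another kept probe set of each was lower in the DSS samples, at -0.97 for Spc25 and -0.65 for Cenpf. A further Cenpf probe set, not kept by the filter, read 283 and 155 against 33.6 and 26.0, a difference of -1.98. Cenpa, the histone H3 variant that marks centromeres, had 514 and 761 against 353 and 377 on its brightest probe set (-0.73 ± 0.43). Its other kept probe set read 376 and 309 against 574 and 607 (0.74), so that both probe sets separated the groups, in opposite directions. Nuf2, a partner of Ndc80, had 298 and 447 against 293 and 452, a difference of -0.00 ± 0.48 that was positive under both other scalings. Ndc80 itself (1.29 ± 0.92) ranged from 25.04 to 293 on the untreated arrays against from 283 to 318 after DSS, and the motor Cenpe (0.43 ± 0.55) from 181 to 431 and from 330.0 to 459.5.

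Among spindle motors and microtubule binders 1 of 5 genes was higher on both DSS arrays, near the 17.2% of all genes. Nusap1, which bundles microtubules near chromosomes, had 456 and 716 on the untreated arrays against 844 and 1028 after DSS (0.67 ± 0.42). Tpx2, which activates Aurora A on the spindle, had 628 and 2679 against 476 and 778. Its estimate of -1.06 ± 0.69 rested on untreated replicate 2, and its kept probe sets gave -1.06, -0.56 and 0.19. Kif2c, a kinesin that shortens microtubules, had 488 and 244 against 365 and 563 (0.36 ± 0.51), but its other kept probe sets gave -1.35 and -1.30. After quantile normalization, where a different probe set represented it, Kif2c differed by -1.17. Kif11 and Kif4, a motor that separates spindle poles and a chromosome-bound motor, had overlapping groups and differences of 0.03 ± 0.48 and 0.20 ± 0.89.

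Of 5 cytokinesis genes, 4 had higher estimates and 2 lay higher and 0 lower on both DSS arrays, where 17.2% and 23.8% of all genes did. Ect2, the exchange factor that activates RhoA at the cleavage furrow, had 355 and 208 on the untreated arrays against 533 and 436 after DSS (0.75 ± 0.48). Anln (anillin), a scaffold of the contractile ring, had 133 and 183 against 306 and 278 (0.78 ± 0.57), and passed the filter through its DSS values alone. Racgap1, a component of the centralspindlin complex, had 70.5 and 1151 against 859.8 and 981. On this probe set untreated replicate 1 alone gave the difference of 1.45 ± 1.02, which was -0.32 without that array. Its other kept probe set read 226 and 184 against 413 and 282, higher on both DSS arrays by 0.67. Prc1, which bundles midzone microtubules, had 503 and 676 against 723 and 674 (0.25 ± 0.40), and Kif23, the motor of centralspindlin, had a difference of -0.29 ± 0.52 with overlapping groups.

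The 2 members that end mitosis by ubiquitination differed in sign. Ube2c, the ubiquitin-conjugating enzyme of the anaphase-promoting complex, had 42.9 and 238 on the untreated arrays against 312 and 354 after DSS (1.36 ± 0.77). Cdc20, the activator of that complex, had 1954 and 4456 against 1601 and 2744 (-0.49 ± 0.53). Cdc20 overlapped between groups on its brightest probe set, and its other kept probe set gave -0.08.

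Probe sets of the same gene often disagreed. Of 19 members with over 1 kept probe set, 8 (42.1%) had kept probe sets of opposite sign, against 55.6% of 4898 such genes, and 11 (57.9%) had kept probe sets over 1 log2 apart, against 41.7%. In 9 members (47.4%) all kept probe sets were higher in DSS samples, against 20.4% of such genes, and in 2 (10.5%) all were lower, against 24.1%. The 9 include Bub1b, Incenp and Smc4, each with a probe set that passed the filter through its DSS values alone, so this count is no support. Over all 89 member probe sets with no filter, 56 estimates were higher, where 42.7% of all single-symbol probe sets were, 29 lay higher and 11 lower on both DSS arrays, and the median was 0.40. Of all single-symbol probe sets, 14.5% lay higher and 24.7% lower on both DSS arrays, and the median was -0.14. At least 2-fold, 6 of the 89 lay higher and 3 lower on both DSS arrays, against 1085 and 1858 of all 34945. The 3 that were lower belonged to Nek2, Kif2c and Cenpf. By limma 0 of these 89 passed, and 8 higher and 2 lower had an unadjusted limma p under 0.05, where 3.08% and 3.42% of all did.

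**Figure D4:**
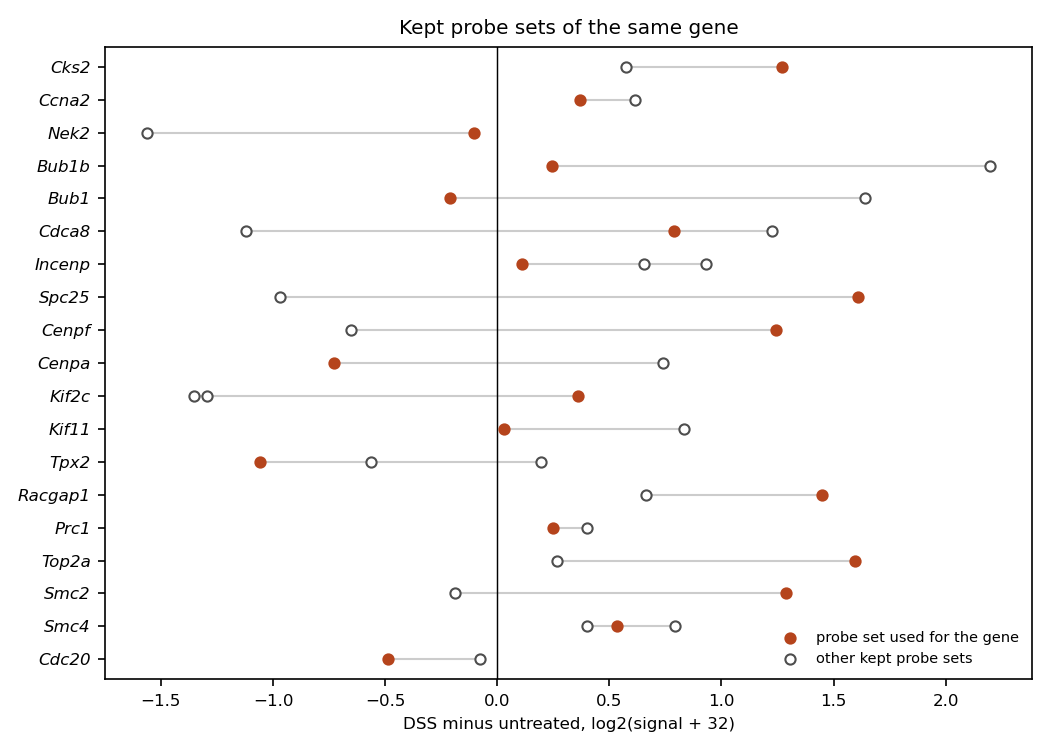
Difference between DSS and untreated samples, in log2(signal + 32), for every kept probe set of the 19 genes with more than 1, with the probe set that represents the gene filled. In 8 genes the kept probe sets lie on both sides of 0, and in 9, of which 3 hold a probe set kept through its DSS values alone, all lie above it.

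The rest of the mitotic machinery had a smaller median difference. From a list of 135 further symbols, older names included, 107 genes were tested: 67 estimates were higher and 40 lower, and the median was 0.17. On both DSS arrays 29 lay higher and 15 lower, where 17.2% and 23.8% of all genes did. By limma 0 passed adjustment, with 11 higher and 2 lower at an unadjusted p under 0.05, where 3.71% and 3.81% of all genes were. In this list 6 genes, Pbk among them, passed the filter through their DSS values alone. The genes with the smallest p were Pbk, a mitotic kinase, with 189 and 169 against 743 and 1036 (2.11 ± 0.44), and Kif22, a chromosome-bound kinesin (1.64 ± 0.41). By role, the median was highest for further mitotic kinases and phosphatase regulators, 1.01 over 4 genes, followed by spindle checkpoint genes, 0.63 over 8, and motors and spindle genes, 0.33 over 23. It was 0.14 over 11 transcription regulators of mitotic genes, 0.06 over 17 chromosome structure genes and 0.02 over 15 genes of the anaphase-promoting complex. It was -0.04 over 17 kinetochore genes, -0.12 over 8 regulators of the mitotic CDK and -0.20 over 4 cytokinesis genes. Many of these are expressed in non-dividing cells too, and whether this bears on their smaller median was not tested.

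Genes of DNA replication had mostly higher estimates as well. Of 33 tested, 28 estimates were higher, with a median of 0.60, and 17 genes lay higher and 3 lower on both DSS arrays, where 17.2% and 23.8% of all genes did. By limma 0 passed adjustment, with 7 higher and 0 lower at an unadjusted p under 0.05, where 3.71% and 3.81% of all genes were. Gins2, a subunit of the replicative helicase, differed by 3.31 ± 0.49 and the licensing factor Cdc6 by 2.05 ± 0.46, and both passed the filter through their DSS values alone. Among 14 growth cyclins, inhibitors and quiescence genes the median was 0.11. The inhibitor Cdkn1a (p21) differed by 1.41 ± 0.46, and Ccnd2, the D-type cyclin of lymphocytes, by -0.93 ± 0.36, with signals of 53158 and 52411 against 31898 and 23952.

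Markers of several cell types also differed between these samples. The T cell label was checked on Cd3d, Cd3e, Cd3g and Trgv4, whose lowest signal on any array was 3898, far above the array medians. The delta chain constant gene was not analysed here. There were 11 tested markers of gamma delta T cells and intraepithelial lymphocytes. On both DSS arrays 2 lay higher and 5 lower, where 17.2% and 23.8% of all genes did. Their summed signal was 577766 to 641050 on the untreated arrays against 324757 to 348464 after DSS. Ccl5 (-1.48 ± 0.34) and Itgae (-1.20 ± 0.33) had the smallest p. Of 13 macrophage and dendritic cell markers, 12 were higher on both DSS arrays, where 17.2% of all genes were. Of these 12, C1qc and Mrc1 passed the filter through their DSS values alone. The summed signal of the 13 was 5851 to 11573 in untreated and 65844 to 91166 in DSS samples. Lyz2 (5.00 ± 0.73) and Csf1r (4.02 ± 0.62) had the smallest p.

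Epithelial markers were mixed. Of 11 colonic epithelial markers 3 lay higher and 1 lower on both DSS arrays, where 17.2% and 23.8% of all genes did. Their summed signals were 8714 to 13338 on the untreated arrays against 12964 to 15262 after DSS. Cdx2 (2.34 ± 0.77) and Car1 (1.04 ± 0.46) had the smallest p, and Cdx2 passed the filter through its DSS values alone. Of 8 crypt and stem cell markers 3 were tested, with overlapping groups and differences from -0.21 to -0.10, among them Cd44 (-0.21 ± 0.47) and Axin2 (-0.17 ± 0.44). Summed signals were 1527 to 1742 against 1204 to 2117 for 6 neutrophil markers tested, of 11 listed. Mpo (-0.99 ± 0.64) and S100a8 (1.39 ± 1.16) had the smallest p. The sums were 16184 to 18533 against 18097 to 20749 for 5 B and plasma cell markers tested, of 9 listed. Most of that signal was Xbp1, at 14504 and 15846 against 16336 and 18401. The smallest p in that list belonged to Sdc1 (1.25 ± 0.73) and Mzb1 (-0.75 ± 0.44), both far dimmer than Xbp1. For 4 markers of alpha beta T cells tested, of 8 listed, the sums were 894 to 1235 against 532 to 843. There the smallest p belonged to Tcra (-1.97 ± 0.75) and Cd5 (-0.21 ± 0.61). No marker was listed at 0, but a signal above 0 does not show that a transcript was detected. On untreated replicate 2, C1qc read 10.9 and Muc2 17.8. The part of these cell types in the level of the mitosis and spindle genes was not tested.

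**Figure D5:**
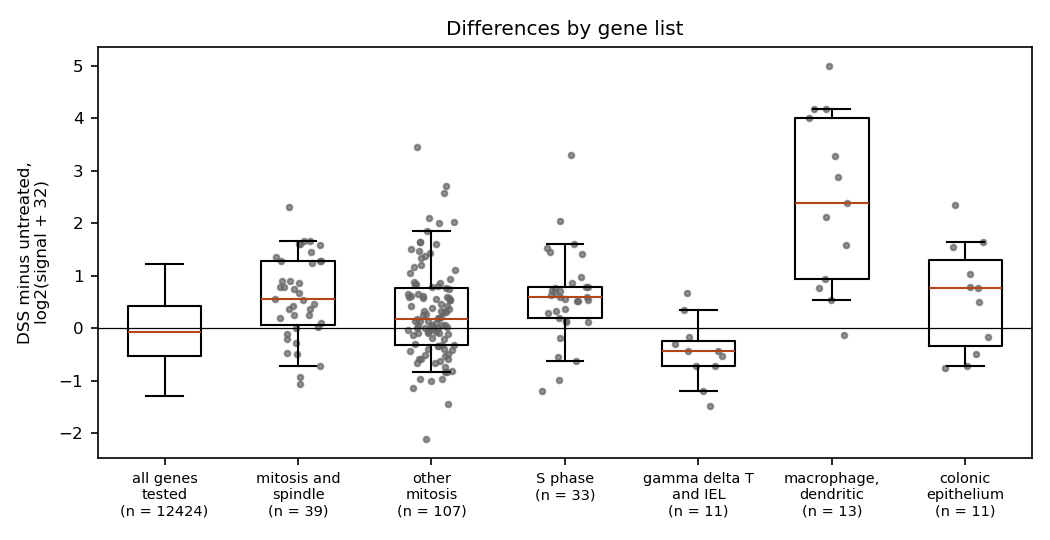
Difference between DSS and untreated samples, in log2(signal + 32), by gene list; points are genes, boxes the median and quartiles, and whiskers the 5th to 95th percentiles. Mitosis and spindle genes (median 0.56) and S phase genes (0.60) lie above all genes (-0.07), and macrophage and dendritic cell markers (2.38) lie highest of the lists shown.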

How the data were processed

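The deposited values are linear signal intensities, 1 per probe set and array, made by the authors with GCOS, per the submitters' processing notes; no version or setting is named there. Each array's deposited intensities average 500.0 after 2% is trimmed at each end, and the scale beyond that is as deposited. RNA was isolated with PicoPure and amplified with RiboAmp HS, per the labels' protocols. The number of arrays limits the precision.

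Probe sets were named from GEO's platform annotation. Of these, 932 with several symbols and 9211 with none were not named, and 13 control probe sets with a symbol were left out. No further normalization was applied. The 2 groups were compared with limma 3.58.1 in R 4.3.3 (lmFit, eBayes with an intensity trend, group as the only term, Benjamini-Hochberg threshold 0.05), tested on simulated data. Values on probe sets ending in _x_at or _s_at are uncertain.

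The members, lists and tests were chosen with earlier results of these data known. Members with non-overlapping groups, an unadjusted p under 0.05 or, within a role, the 3 highest mean signals were described array by array, and of other lists the 2 genes with the smallest p. Alternatives changed the scaling, the pseudocount, the filter, which probe set stood for a gene, the variance trend or a replicate block, or left out each array.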

Additional observations from a re-analysis of the deposited data

How the results depend on the processing

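The members' median difference was positive under all 14 other settings run, between 0.40 and 0.88. Dropping the intensity trend or adding the replicate block could not change it, and it stayed at 0.56. With all 4 arrays kept, 18 to 25 members were higher on both DSS arrays, but the share of all genes that were so also moved, from 14.8% to 30.9%. With 1 array left out, 21 to 27 members were higher on every remaining DSS array than on every remaining untreated array. So were 25.5% to 36.9% of all genes, since groups separate more easily with fewer arrays. Limma called 3 genes when a gene's kept probe sets were averaged, 0 to 1791 genes and 0 to 674 probe sets with 1 array left out, and 0 members in every setting that kept all 4 arrays. Scaling to a common median, which moved the median of all genes to 0.25, gave members a median of 0.88, 9 members at least 2-fold higher (4.30% of all genes) and other mitosis genes a median of 0.51; with 1 array left out, 4 to 13 members were at least 2-fold higher, and 3.30% to 12.0% of all genes. Over all member probe sets the median was 0.56 after quantile normalization, 0.67 after common median scaling and 0.25 with the larger pseudocount. The sample titles number the replicates without saying that same-numbered arrays were paired. Deviations of same-numbered arrays correlated at r = 0.05 across genes, which cannot settle whether they were. A replicate block in the limma fit called 67 genes, 35 probe sets and 0 members.

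Single members changed sign as follows, and the cause was not tested. After quantile normalization and common median scaling in turn, Nek2 differed by 0.16 and 0.20, Bub1 by 0.074 and 0.091, and Nuf2 by 0.22 and 0.32; Kif2c differed by -1.165 after quantile normalization. With a gene's kept probe sets averaged, Bub1 differed by 0.71, Cenpa by 0.0043 and Kif2c by -0.76. Without _x_at and _s_at probe sets, Cdca8 differed by -1.12 and Kif2c by -1.35. With each array left out in turn, differences ranged from -0.12 to 0.86 for Ccna2, -1.27 to 0.34 for Plk1, -0.84 to 0.64 for Nek2, -0.49 to 0.065 for Bub1, -0.20 to 0.69 for Bub1b, -0.22 to 0.43 for Incenp, -0.29 to 0.29 for Nuf2, -0.10 to 0.82 for Kif2c, -0.32 to 3.21 for Racgap1 and -1.08 to 0.10 for Cdc20.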
